A study of Mus musculus with 11 samples.

Results

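Nuclear-encoded subunits of the oxidative phosphorylation complexes were followed as C2C12 myoblasts differentiated into myotubes. The genes were taken by symbol from the annotation of a microarray: every probe whose gene symbol begins with Nduf, Uqcr, Atp5 or one of Cox4 to Cox8, together with the Sdh subunit genes and Cyc1. The cytochrome oxidase genes Cox6a1, Cox6a2, Cox7a1, Cox7a2, Cox8a and Cox8b were left out. This gave 101 of the 25697 probes on the array and 80 of its 16593 gene symbols. By symbol, 35 genes were counted in complex I, 3 in complex II, 9 in complex III, 12 in complex IV and 16 in complex V. The other 5 were complex I assembly factors, which begin with Ndufaf and are no subunits.

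Complexes I and II pass electrons from NADH and succinate to coenzyme Q, complex III passes them on to cytochrome c, and complex IV (cytochrome oxidase) hands them to oxygen. Complexes I, III and IV pump protons across the inner mitochondrial membrane, and complex V (ATP synthase) uses the returning protons to make ATP. Complexes I, III, IV and V also hold subunits encoded in mitochondrial DNA, which have other symbols and were not analysed here. Muscle relies on this pathway for sustained work, and myotubes are generally richer in mitochondria than myoblasts.

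Promoters of these genes are known for short motifs bound by NRF1, by the ETS family factor GABP, by the estrogen-related receptors (ERR) and by YY1. Stretches around such motifs are shown here for some of the genes, which were not chosen for carrying them. RefSeq promoter windows (build GRCm38.p6, 250 bases before to 50 bases after the start of each transcript) were found for 65 of the 80 genes, with 70 windows in all. The letters GCATGCGC (NRF1), searched on both strands, stood in 14.3% of these windows and in 2.71% of all 32851 windows. The ETS letters CCGGAAG stood in 21.4% against 8.86%, the ERR letters TCAAGGTCA in 2.86% against 0.423%, and the YY1 letters AAGATGGCG, which contain ATG and can lie on a translation start, in 10% against 1.40%. Of the 65 genes, 28 had the letters of any of NRF1, ETS, ERR or YY1. The muscle E-box CAGCTG, a form bound by MyoD and myogenin, stood in 5.71% of the windows against 16.3%. None of these motifs contains another. The windows below carry the motif in capitals, written 5′ to 3′ on the strand of the gene. They are the ETS motif in all 3 of its genes that were called higher at Day 6 (Ndufs3, Ndufb7, Ndufaf1), the YY1 motif of Ndufs4, the NRF1 motif of Ndufaf4, called lower, and of Atp5g2, and the ERR motif of Atp5g3. The Atp5g3 match reads on the opposite strand. In Ndufaf4 and Atp5g2 the NRF1 letters match on both strands at overlapping positions, and the capitals mark only the match on the opposite strand.
Ndufs3 (chr2:90904731-90904758, minus strand): ccgcgtccgcCCGGAAGaagagtcactg
Ndufb7 (chr8:83566728-83566755, plus strand): cctagatgacCCGGAAGacactgaaggg
Ndufaf1 (chr2:119662835-119662862, minus strand): gggaccacaaCCGGAAGcgtggcgaacc
Ndufs4 (chr13:114388045-114388072, minus strand): gtttgcctacaggAAGATGGCGgcggtc
Ndufaf4 (chr4:24897960-24897987, plus strand): ccagatgtctGCGCATGCgcctgtgcgg
Atp5g2 (chr15:102671072-102671099, minus strand): ggctccggccGCGCATGCgcagagcctt
Atp5g3 (chr2:73911361-73911388, minus strand): tgttacaaagTGACCTTGAgcgtcttcc

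C2C12 is an established mouse myoblast line. Cultures in growth medium with fetal bovine serum (Day 0, proliferating) were compared with cultures kept for 6 days in differentiation medium with horse serum (Day 6), with 5 samples of each day, which the series describes as independent experiments. Total RNA was hybridized to Illumina mouse BeadChips. The labels name no transfection or other treatment. The 2 arrays of Day 0 replicate 5 were averaged, so 11 arrays gave 10 samples. A probe was detected at a detection p under 0.05, and 43.7 to 47.4% of the probes were detected at Day 0 and 44.7 to 48.7% at Day 6. Values below are log2 signals after background correction and quantile normalization, and a change is the mean of Day 6 minus the mean of Day 0. A gene was called when the Benjamini-Hochberg adjusted p of limma over all 8659 detected genes was under 0.05. The cultures were measured in bulk, so a difference in the number of cells of a type and a difference in RNA per cell cannot be told apart.

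The labels of the days were checked with marker genes. All 5 myotube markers (Acta1, Ckm, Mef2c, Mymk, Myog) were called higher at Day 6, by 4.18 to 5.61, though Ckm was detected in 1 and Mymk and Myog in 3 of the 5 Day 0 samples. Of the myoblast markers, Des and Myod1 were detected and called higher, and Myf5 and Pax7 were not detected in enough samples to be tested. The summed signal of the myotube markers ranged from 493 to 6618 over the Day 0 samples and from 26002 to 32399 over the Day 6 samples. Day 0 replicate 5 stood apart, with a Myog level of 8.64 where the other Day 0 samples had 4.45 to 5.75. Of 5 adipocyte markers 1 was tested (Lep, not called), of 4 endothelial markers 2 (Kdr and Tek, not called), and of 2 macrophage markers none. Of 4 osteoblast markers 1 was tested, the osteocalcin gene Bglap2, which was called higher by 3.41, while Dmp1, Ibsp and Sp7 were not detected in enough samples.

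A gene was tested when 3 or more samples of a day detected its probe, which 70 of the 80 genes met. The other 10 were Ndufs1 and Ndufb11 of complex I, the assembly factor Ndufaf3, Uqcrfs1 (the Rieske iron-sulphur protein) and Uqcrq of complex III, Atp5k of complex V, and 4 cytochrome oxidase genes. These 4 were Cox4i2, the isoform of subunit IV known from lung, and Cox6b2, Cox7b2 and Cox8c, known from testis. Apart from 1 probe of Ndufb11, detected in 1 sample of each day, none of their probes was detected on any day. Since Ndufs1 and Uqcrfs1 are core subunits without which complexes I and III do not work, an undetected probe here does not show an absent transcript.

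Differences between the days were small in the 70 genes. Of them 12 (17.1%) were called higher at Day 6, against 21.1% of all genes tested, and 2 (2.86%) were called lower, against 24.2%. The other 56 were not called. The median change was 0.23, against -0.03 over all genes, and 52 of the 70 changes were above 0. The spread of the changes between genes was narrow, with an SD of 0.30 against 0.99 over all genes. No gene of the 70 differed by more than 1 on the log2 scale, a 2-fold difference, whereas 1640 of 8659 genes (18.9%) did. For 61 of the 70 (87.1%) the whole 95% interval of the change lay between -1 and 1, which held for 60.8% of all genes. In 6 genes (8.57%) every Day 6 sample lay above every Day 0 sample, against 15.3% of all genes, and in 0 genes every Day 6 sample lay below, against 17.2%. The number called higher rested on single samples: it was 5 without Day 6 replicate 2, 6 without Day 0 replicate 1, 7 without Day 6 replicate 1 and 22 without Day 0 replicate 3, and the number called lower ranged from 0 to 3. Without Day 0 replicate 5, the sample with the raised Myog level, 12 genes were called higher, of which 10 were among the 12 above, and 3 lower. When the arrays were scaled to equal medians in place of quantile normalization, 1 gene was called higher (Ndufa13) and 0 lower, the median of the 70 changes was 0.05 and that of all genes -0.13. Of all genes, 13.3% were then called higher and 23.9% lower.

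**Figure D1:**
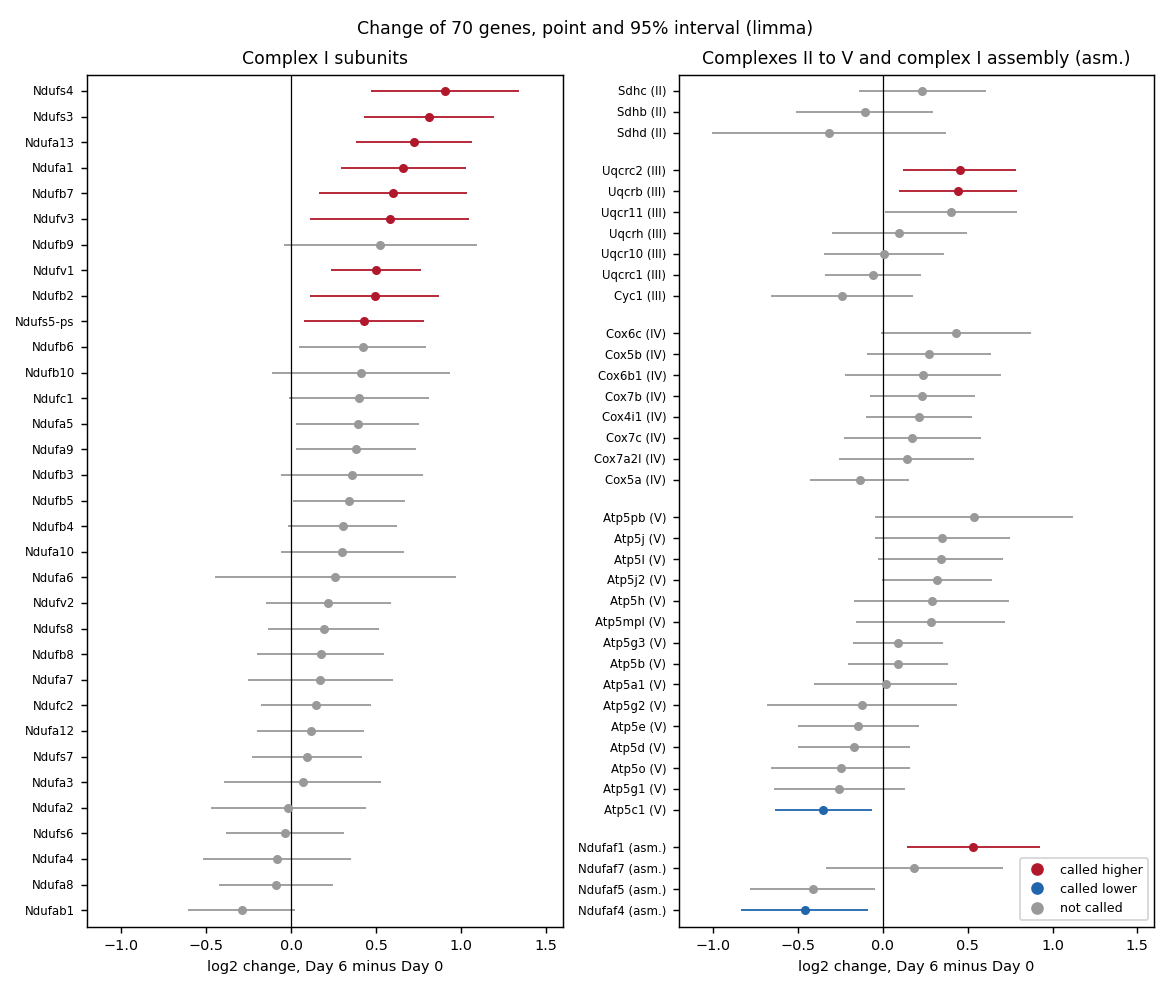
Change of each of the 70 tested genes (horizontal axis: log2 signal at Day 6 minus Day 0, from 5 samples of each day), with complex I on the left and the other complexes and the assembly factors on the right. Points are the limma estimates and lines their 95% intervals. Complex I holds 9 of the 12 genes called higher (red), the 2 genes called lower (blue) are Atp5c1 and Ndufaf4, and no point lies beyond 1 in either direction.

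The complexes were assigned by symbol. Complex I therefore counts the pseudogene Ndufs5-ps, called higher, and Ndufa4, later found in cytochrome oxidase. Complex IV counts Cox7a2l, a supercomplex factor related to subunit VIIa. By complex, the median change was 0.34 over 33 genes of complex I (28 above 0), -0.11 over 3 of complex II, 0.22 over 8 of complex IV and -0.11 over the 4 assembly factors. It was 0.10 over 7 genes of complex III and 0.09 over 15 of complex V, and with equal array medians both of these turned below 0, to -0.03 and -0.06. The same scaling gave 0.20 for complex I (24 above 0), -0.28 for complex II, 0.07 for complex IV (6 above 0) and -0.27 for the assembly factors. Of all genes tested, 21.1% were called higher and 24.2% lower. Complex I had 9 genes called higher (27.3%) and 0 lower, and complex III had 2 higher (28.6%) and 0 lower. Complexes II and IV had none called, complex V had 1 called lower, and the assembly factors had 1 higher and 1 lower. Differences between the complexes were not tested.

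Averaged over the 70 genes, the level was 9.63, 9.64, 10.02, 9.72 and 9.57 in Day 0 replicates 1 to 5, and 10.03, 10.03, 9.74, 9.90 and 9.87 in Day 6 replicates 1 to 5. The mean was 9.72 ± 0.18 (SD, n = 5) at Day 0 and 9.91 ± 0.12 at Day 6, and the days overlapped. Day 0 replicate 3 lay among the Day 6 samples. It had the highest Day 0 value in 50 of the 70 genes, at a median of 0.41 above the mean of the other Day 0 replicates. At Day 6, replicate 3 had the lowest value in 41 genes, at a median difference of -0.25, and Day 0 replicate 5 had the lowest Day 0 value in 30. Over all 8659 genes, by contrast, the means of the samples lay between 7.26 and 7.29, as the normalization sets them. Day 0 replicate 3 also had the highest Day 0 level of Bglap2 (7.63, against 5.04 to 5.89 in the others), whose part in the result was not tested. Its Myog level was 5.67, against 4.45 to 5.75 in Day 0 replicates 1, 2 and 4.

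**Figure D2:**
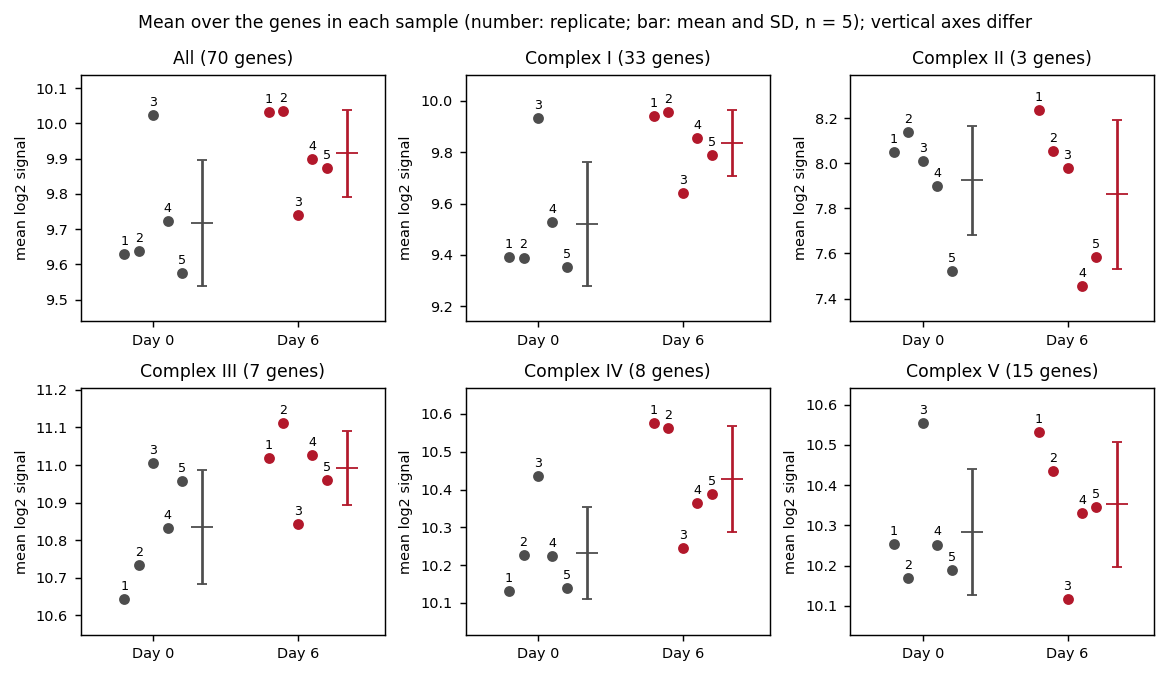
Mean log2 signal over the tested genes in each sample, for all 70 genes and for each complex (vertical axes differ between panels), with numbers giving the replicate and bars the mean and SD of 5 samples. Day 0 replicate 3 lies at 10.02 over all genes, level with Day 6 replicates 1 and 2 at 10.03, and Day 6 replicate 3 at 9.74 is the lowest of its day.

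The sample descriptions carry a part written E1 to E4, each of which covers samples of both days and whose meaning the labels do not give. Within E1 the mean over the 70 genes was 0.40 higher at Day 6, within E2 0.01, within E3 0.10 and within E4 0.30. For complex I the same differences were 0.55, 0.02, 0.22 and 0.44. E2 holds Day 0 replicate 3 as its only Day 0 sample, while Day 0 replicates 1 and 2 share E1 and Day 6 replicates 3 and 4 share E3. With E1 to E4 as a block in the limma fit, 13 genes were called higher, of which 10 were among the 12 called without it. The 1 gene called lower with the block was Ndufaf5, and both genes called lower without it, Atp5c1 and Ndufaf4, lost their calls.

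Complex I has core subunits, among them those that carry the flavin and the iron-sulphur clusters, and accessory subunits around them. Of 5 core subunits tested, all had a change above 0 (4 with equal array medians) and 2 were called higher, Ndufv1 and Ndufs3. Ndufv1 encodes the subunit that binds NADH and FMN. Its level was 11.36, 11.39, 11.29, 11.45 and 11.39 in Day 0 replicates 1 to 5, and 11.77, 11.86, 12.09, 11.81 and 11.85 in Day 6 replicates 1 to 5. Here the days did not overlap and the Day 0 samples lay within an SD of 0.06. The change was 0.50 ± 0.12 (SE), or 1.41-fold (95% interval 1.18 to 1.70, adjusted p = 0.0047), and it was 0.39 to 0.57 within each of E1 to E4.

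Ndufs3, a core subunit of the quinone-reducing module, read 9.05, 9.24, 9.92, 9.16 and 9.03 at Day 0 and 10.08, 10.33, 9.96, 9.97 and 10.13 at Day 6. All Day 6 samples were higher than all Day 0 samples, though Day 0 replicate 3 came within a few hundredths of the lowest of them. The change was 0.81 ± 0.18, or 1.76-fold (1.35 to 2.29, adjusted p = 0.0022). The remaining core subunits were not called: Ndufv2 (a subunit of the NADH-oxidizing module) had a difference of 0.22 with an interval of -0.15 to 0.59, Ndufs8 (quinone-reducing module) one of 0.19 with -0.13 to 0.52, and Ndufs7 (beside the quinone site) one of 0.09 with -0.23 to 0.42.

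Among 27 accessory subunits 6 (22.2%) were called higher, against 21.1% of all genes tested, and 0 lower, against 24.2%. Their median change was 0.34. Ndufs4, an accessory subunit of the NADH-oxidizing arm whose human gene is mutated in Leigh syndrome, had the largest change of the 70 genes. Its Day 0 levels were 9.74, 9.54, 10.66, 10.01 and 9.48, and its Day 6 levels 10.73, 10.86, 10.79, 10.85 and 10.72. The Day 6 samples lay close together (SD 0.07) above a wide Day 0 spread (SD 0.48), in which replicate 3 was the highest. The change was 0.91 ± 0.20, or 1.87-fold (1.39 to 2.53, adjusted p = 0.0024), and it was 1.09, 0.20, 0.81 and 1.24 within E1 to E4.

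Ndufa13, also known as GRIM-19, had Day 0 levels of 11.24, 11.38, 11.85, 11.76 and 11.77 and Day 6 levels of 12.36, 12.49, 12.07, 12.45 and 12.24. The days did not overlap, and the change was 0.72 ± 0.16, or 1.65-fold (1.30 to 2.09, adjusted p = 0.0022). It was the only gene of the 70 that stayed called in all 23 other settings tried. Ndufa1, a small membrane subunit encoded on the X chromosome, read 9.27, 9.24, 9.93, 9.73 and 9.16 at Day 0 and 10.07, 10.24, 10.31, 10.04 and 9.98 at Day 6. It too was higher in every Day 6 sample, by 0.66 ± 0.17, or 1.58-fold (1.23 to 2.04, adjusted p = 0.0061). Ndufv1, Ndufs3, Ndufs4 and Ndufa1 each stayed called in 22 of the 23 settings and lost the call with equal array medians. For each of these 5 genes the exact permutation test over the 10 samples (two-sided) gave p = 0.00794, the smallest that 5 against 5 samples allow.

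The other accessory calls were weaker. Ndufv3 (NADH-oxidizing arm) changed by 0.58 (adjusted p = 0.043), Ndufb7 by 0.60 (0.027) and Ndufb2 by 0.49 (0.035), the latter both in the membrane arm, and they were called in 13, 14 and 13 of the 23 other settings. Of these only Ndufb2 had days that did not overlap. The Ndufb and Ndufc genes, which encode accessory subunits of the membrane arm, had changes of like size: all 11 tested were above 0 (10 with equal array medians), from 0.14 to 0.60 with a median of 0.40, but only Ndufb7 and Ndufb2 were called. The remaining 16 accessory subunits ranged more widely, from -0.29 to 0.91. At the low end, Ndufab1 (the mitochondrial acyl carrier protein) was detected in 5 of 5 Day 0 and 2 of 5 Day 6 samples, and its difference was -0.29 with an interval of -0.61 to 0.02 (adjusted p = 0.119). Ndufa4, named for complex I and later found to belong to cytochrome oxidase, had a difference of -0.08 with an interval of -0.52 to 0.35. The remaining call was Ndufs5-ps, annotated as a pseudogene of the accessory subunit Ndufs5, at 0.43 (adjusted p = 0.046), called in 10 of the 23 other settings. Which transcript its probe binds was not analysed here.

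**Figure D3:**
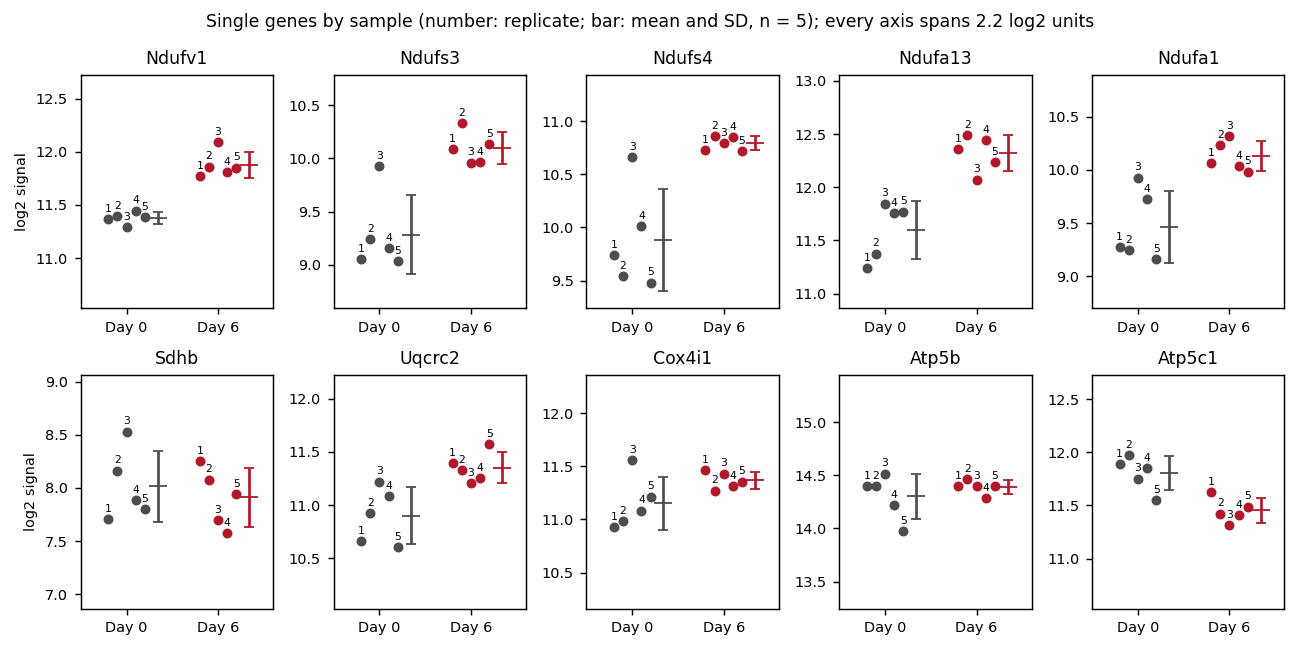
Log2 signal of 10 genes in each sample (every vertical axis spans the same range), with numbers giving the replicate and bars the mean and SD of 5 samples. The 5 complex I genes of the upper panels have all Day 6 samples above all Day 0 samples, Day 0 replicate 3 is the highest Day 0 sample in 4 of them, and Sdhb, Cox4i1 and Atp5b overlap between the days.

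The complex I assembly factors went both ways. Ndufaf1 was called higher, with Day 0 levels of 7.22, 7.62, 7.65, 7.32 and 6.84 and Day 6 levels of 7.69, 8.13, 8.08, 7.57 and 7.85, a change of 0.53 ± 0.18 (adjusted p = 0.028). Ndufaf4 was called lower, with Day 0 levels of 9.51, 9.50, 8.65, 9.34 and 9.06 and Day 6 levels of 8.86, 8.77, 8.75, 8.58 and 8.80, a change of -0.46 ± 0.17 (adjusted p = 0.044). In Ndufaf1, Day 6 replicate 4 lay below Day 0 replicates 2 and 3, and in Ndufaf4, Day 0 replicate 3 lay below 4 of the Day 6 samples. Ndufaf1 was called in 16 and Ndufaf4 in 11 of the 23 other settings. Both lost the call with equal array medians, and Ndufaf4 also with the E1 to E4 block. Not called were Ndufaf5, with a difference of -0.41 (adjusted p = 0.064), and Ndufaf7, with 0.19 (interval -0.34 to 0.71). Of 5 further complex I assembly genes outside these symbols (Acad9, Ecsit, Foxred1, Timmdc1, Tmem126b), 0 were called, with a median change of 0.21.

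Of complex II (succinate dehydrogenase), 3 genes were measured and none was called. Sdha had no probe under that symbol, so this subunit gene was not covered. Sdhb, its iron-sulphur subunit, read 7.71, 8.16, 8.53, 7.88 and 7.80 at Day 0 and 8.25, 8.08, 7.70, 7.58 and 7.94 at Day 6, a difference of -0.11 with an interval of -0.51 to 0.30. The membrane anchor Sdhc read 9.82 to 10.08 in 9 samples and 9.12 in Day 0 replicate 5, with a difference of 0.23 (interval -0.14 to 0.61). The other anchor, Sdhd, spread most within a day: 6.53, 6.30, 5.49, 6.00 and 5.65 at Day 0, and 6.45, 6.01, 6.15, 4.77 and 4.99 at Day 6. Its interval of -1.01 to 0.37 leaves a 2-fold decrease possible.

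In complex III 2 of 7 genes were called higher, by 1.37-fold and 1.36-fold. Uqcrc2 (core protein 2) had Day 0 levels of 10.66, 10.92, 11.22, 11.09 and 10.60 and Day 6 levels of 11.39, 11.33, 11.20, 11.26 and 11.58. Day 6 replicate 3 fell just under Day 0 replicate 3, and the other samples did not overlap. The change was 0.45 ± 0.16 (adjusted p = 0.028). Uqcrb, a small subunit, changed by 0.44 ± 0.16 (adjusted p = 0.038), with a difference of the opposite sign, -0.14, within E4. Uqcrc2 was called in 15 and Uqcrb in 12 of the 23 other settings, and neither with the E1 to E4 block or with equal array medians. The differences of the others were not called. They were -0.06 for core protein 1, Uqcrc1 (interval -0.34 to 0.23), -0.24 for cytochrome c1, Cyc1 (-0.66 to 0.18), and 0.01 and 0.40 for the small subunits Uqcr10 (-0.34 to 0.36) and Uqcr11 (0.01 to 0.79, adjusted p = 0.087).

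None of 8 complex IV genes was called, and 7 had a change above 0. Cox4i1, the ubiquitous form of subunit IV, read 10.93, 10.98, 11.55, 11.08 and 11.21 at Day 0 and 11.47, 11.27, 11.43, 11.31 and 11.35 at Day 6. Only Day 0 replicate 3 reached past any Day 6 sample, and it lay above all of them. The difference was 0.21 with an interval of -0.10 to 0.53. Cox6b1, the ubiquitous form of subunit VIb, differed by 0.24 (-0.22 to 0.69) and Cox7b, subunit VIIb, by 0.23 (-0.07 to 0.54). The other detected probe of Cox6b1 differed by 0.50 (0.05 to 0.95) and was not called (limma adjusted p over all probes = 0.068). Cox6c had the largest difference of the 8, 0.43 (-0.01 to 0.87), while Cox5a was the only one below 0, at -0.14 (-0.43 to 0.16). The muscle isoforms that had been left out were of another size: Cox6a2 was called higher by 5.40, Cox8b, detected in 2 of 5 Day 0 samples, by 4.84 and Cox7a1 by 2.31. The widely expressed forms Cox6a1, Cox7a2 and Cox8a had differences of -0.30, -0.06 and -0.41 and were not called.

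ATP synthase has a catalytic head with a rotating central stalk, a peripheral stalk that holds the head, and a membrane part through which protons pass. Of its 15 genes tested, 1 was called. Atp5b, the catalytic beta subunit, read 14.40, 14.40, 14.52, 14.22 and 13.98 at Day 0 and 14.40, 14.47, 14.40, 14.29 and 14.40 at Day 6. The samples of both days overlapped, and the difference was 0.09 with an interval of -0.21 to 0.38. Atp5b read exactly 14.397 in Day 0 replicates 1 and 2 and in Day 6 replicates 1, 3 and 5. Quantile normalization gives probes of the same rank the same value, so these equal values mean equal ranks. That of the alpha subunit Atp5a1 was 0.02 (-0.41 to 0.44). The gamma subunit Atp5c1, the shaft of the central stalk, was called lower: its Day 0 levels were 11.89, 11.97, 11.75, 11.85 and 11.55 and its Day 6 levels 11.62, 11.42, 11.32, 11.41 and 11.49. Only Day 6 replicate 1 and Day 0 replicate 5 overlapped. The change was -0.35 ± 0.13, or 0.784-fold (0.643 to 0.956, adjusted p = 0.045), and it was called in 8 of the 23 other settings. Over the 5 genes of the head and central stalk the median change was -0.14, over 4 genes of the peripheral stalk 0.32 and over 6 genes of the membrane part 0.19. With equal array medians these became -0.17, 0.17 and 0.03, the last with 3 of 6 changes above 0. In the peripheral stalk, Atp5pb (subunit b) had a difference of 0.54 with a wide interval of -0.04 to 1.12. It read 8.57 in Day 0 replicate 5 and 9.78 to 10.38 in the other Day 0 samples. Atp5j, also of this stalk, counts in the median with a probe at 0.35, while its other detected probe differed by -0.29.

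Subunit c, which forms the rotating ring, is made from 3 genes that encode the same mature protein. The differences were -0.26 for Atp5g1 (-0.64 to 0.13), -0.12 for Atp5g2 (-0.68 to 0.44) and 0.09 for Atp5g3 (-0.18 to 0.36). All 3 intervals held 0, and Atp5g3 varied least within a day, from 13.69 to 13.97 at Day 0 and from 13.84 to 14.06 at Day 6. Its value was the same, 13.86, in Day 0 replicate 3 and in Day 6 replicates 4 and 5, where quantile normalization gave equal ranks equal values.

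Counted by probe, 85 of the 101 probes were detected and tested. Of these 16 (18.8%) were called higher, against 20.5% of all 12753 probes tested, and 2 (2.35%) lower, against 23.8%. Ndufs4 was measured by 4 detected probes, all called higher, at 0.53, 0.63, 0.75 and 0.91. Ndufv3 had 3, of which 2 were called higher at 0.58 and 0.76, while the third, detected in 4 of 5 Day 0 and 3 of 5 Day 6 samples, differed by -0.11. Probes of Ndufa5 (0.39 and -0.11), Ndufa8 (-0.09 and 0.07), Ndufb6 (0.42 and -0.21), Atp5j (0.35 and -0.29), Uqcr10 (0.01 and -0.12) and Sdhb (-0.11, -0.05 and 0.05) differed in sign, and none of these was called.

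**Figure D4:**
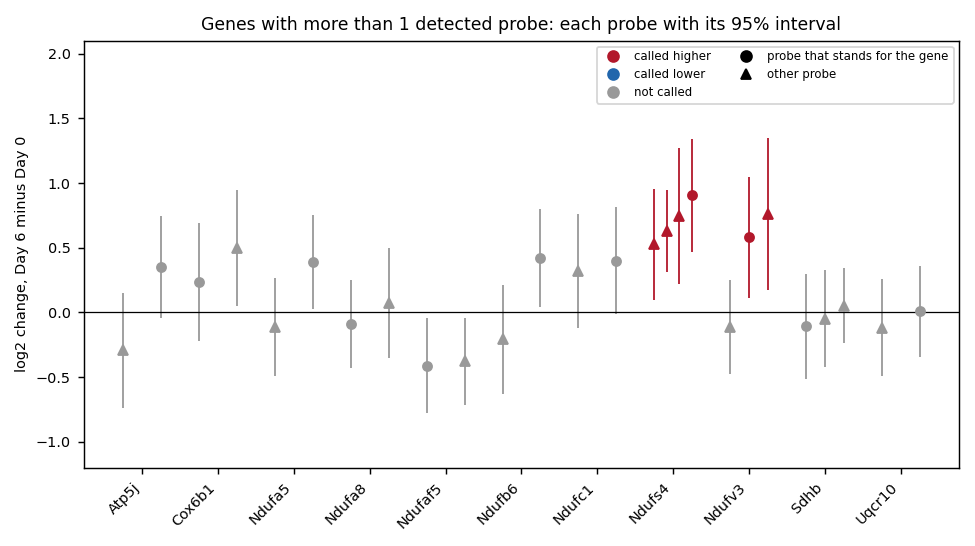
Change of each detected probe (vertical axis: log2 signal at Day 6 minus Day 0) of the 11 genes with more than 1 detected probe, with 95% intervals from limma. Circles are the probe that stands for the gene and triangles the others. All 4 probes of Ndufs4 and 2 of 3 of Ndufv3 were called higher (red), and the intervals of the probes that differ in sign overlap.

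The study's methods chose transcripts by a Z-ratio of at least 1 in either direction and do not spell out its formula or any detection filter. It was computed here from the deposited Z-scores as the difference of mean Z-scores between the days, divided by the SD of that difference over all probes, with no detection filter. The Z-ratio was 1 or more in 11 of the 101 probes (10.9%), against 6.99% of all probes, and -1 or less in 0, against 7.97%. These shares compare sets unlike in detection, since 85 of the 101 probes were detected, against 12753 of all 25697. The highest Z-ratios were 1.70 for Ndufs4, 1.55 for Ndufa13 and 1.47 for Ndufs3. The Z-ratio carries no replicate error, and 2 probes at 1 or more, of Atp5pb (1.05) and Cox6b1 (1.04), were not called by limma.

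The genes that feed, build or accompany the complexes were read beside them, from lists chosen by pathway. Of all genes tested, 21.1% were called higher and 24.2% lower. Among 4 electron carriers 1 was called, Etfdh, which passes electrons from fatty acid oxidation to coenzyme Q, at 0.70, and cytochrome c (Cycs) had a difference of -0.04. In coenzyme Q synthesis 2 of 8 were called higher, Coq9 at 1.46 and Coq5 at 0.58, and 1 lower, Coq7 at -0.69. Of 8 assembly genes for complexes II, III and V, 3 were called higher and 0 lower: Uqcc1, a complex III assembly factor, at 1.92, Ttc19 at 0.63 and Sdhaf1 at 0.45. Of 13 cytochrome oxidase assembly genes, 4 were called higher, among them Cox19 at 0.70, Cox15 at 0.61 and Cox14 at 0.52, and 2 lower, Cox18 at -0.70 and Cox10 at -0.69. The changes of Uqcc1 and Coq9 were larger than that of any of the 70 genes. With equal array medians Coq9 and Uqcc1 remained called higher and Coq7, Cox18 and Cox10 lower, and the others named lost their calls.

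In the TCA cycle 2 of 11 genes were called higher (Idh3g at 0.57, Idh3a at 0.55) and 2 lower (Suclg2 at -0.75, Idh3b at -0.50), with a median of 0.01 that turned to -0.19 with equal array medians. Of 5 genes for ATP and phosphate exchange, Slc25a5, an adenine nucleotide carrier, was called lower at -0.49 and the others were not called. Of 10 regulators of mitochondrial biogenesis, the coactivator Ppargc1a, detected in 1 of 5 Day 0 and 4 of 5 Day 6 samples, was called higher at 0.80 and the transcription factor Nrf1 lower at -0.70, while Gabpa (0.34), Esrra (-0.01) and Tfam (-0.24) were not called. The mitochondrial ribosomal proteins, with 70 genes tested as well, went the other way, with a median change of -0.29. Of them 26 (37.1%) were called lower, against 24.2% of all genes tested, and 5 (7.14%) higher, against 21.1%. The largest decreases were of Mrpl12 (-1.30), Mrps6 (-1.28) and Mrps18b (-1.12), and among those called higher were Mrps31 (0.54), Mrpl57 (0.54) and Mrps34 (0.50). With equal array medians 25 were called lower and 0 higher, where 23.9% of all genes were called lower and 13.3% higher. The calls of Slc25a5, Ppargc1a, Nrf1, Suclg2 and Idh3b remained with that scaling, and those of Idh3g and Idh3a were lost.

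The promoter motifs were set beside these changes as a description, with 21.1% of all genes tested called higher. Of 9 tested genes with the NRF1 letters, 0 were called higher and 1 lower (Ndufaf4), with a median change of -0.09. Of the 50 without them 9 were called higher and 1 lower, with a median of 0.23. Of 14 genes with the ETS letters, 3 were called higher and 0 lower, with a median of 0.31, and of 45 without them 6 were called higher and 2 lower, with a median of 0.17. Of 7 genes with the YY1 letters 1 was called higher (Ndufs4), with a median of 0.35, and of 52 without them 8, with a median of 0.18. The ERR letters stood in 2 tested genes, Atp5g3 and Sdhd, and the E-box letters in 4, and none of these was called. Differences between genes with and without a motif were not tested.

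**Figure D5:**
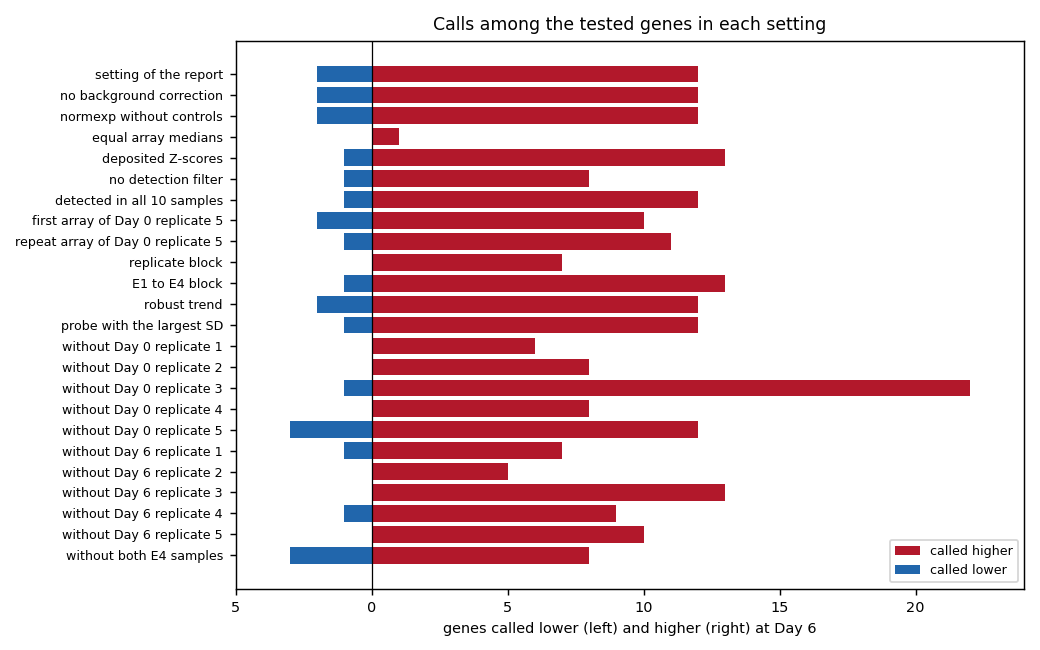
Number of the tested genes called lower (to the left of 0) and higher (to the right) at Day 6 in the report's setting, 12 higher and 2 lower, and in each of 23 others. Between 1 (equal array medians) and 22 (without Day 0 replicate 3) were called higher and 0 to 3 lower.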

How the data were processed

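The authors extracted probe signals and detection p-values with GenomeStudio 2011.1, and the deposited signal intensities are neither background-subtracted nor normalized between arrays. They also deposited a Z-score per probe, a score taken within each array, which recomputation from the signals matched within 0.005. The genome build of the probes is not given in the sources used here.

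Intensities were put on the log2 scale by neqc (limma 3.58.1, R 4.3.3; offset 16), with negative controls inferred from the deposited detection p-values. Both arrays of Day 0 replicate 5 were averaged. Probes with detection p under 0.05 in at least 3 samples of 1 day were kept, the kept probe of highest mean stood for a gene, and Day 6 was compared with Day 0 by lmFit and eBayes without covariates, adjusted over all genes or probes. Single genes were also compared by an exact permutation test. Steps were tested on simulated data. Plots used Python 3.11.15 and matplotlib 3.10.9. The number of arrays limits the precision: the median SD over the 70 genes was 0.32 at Day 0, 0.21 at Day 6 and 0.10 between the repeat arrays.

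The genes and lists were chosen with earlier results of these data known. Named were all complex II genes, core subunits, isoform sets, up to 4 called genes with the largest increase and 2 with the largest decrease per complex, genes whose probes differ, members that are no subunit, and up to 3 called genes per direction of each list. Ndufb7, Ndufb2, Ndufab1, Atp5pb, Cox5a, Cox6c and the uncalled genes of the lists were named after their values were seen. Lists covered electron carriers, coenzyme Q synthesis, assembly factors, ATP and phosphate exchange, biogenesis regulators, TCA cycle, mitochondrial ribosomal proteins and markers of 6 cell types. Alternatives were other background corrections, scalings, detection filters, arrays of Day 0 replicate 5, blocks, probes, and each sample left out. A fit without the 2 E4 samples was chosen after seeing the data.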

Additional observations from a re-analysis of the deposited data

Results flagged for a closer look

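Each of the 70 tested genes, their mean and the mean over each complex and over the assembly factors were examined within each day for a sample far from the other 4, by the gap to its nearest neighbour as a share of the whole range. Genes of the other lists were not examined. With a critical value of 0.71, 14 of 154 groups were marked. Chance marks about 1 in 20 of independent groups. These groups share the same 10 samples, and the means share their genes, so the count cannot be set against that rate. Day 0 replicate 3 lay high in Ndufs3 (share 0.766; 9.92 against 9.03 to 9.24), in Ndufa9 (0.736; 11.26 against 10.46 to 10.67), in Uqcr10 (0.809; 12.49 against 12.03 to 12.12), in Cox6b1 (0.746; 12.04 against 11.11 to 11.35) and in the mean over complex V (0.780; 10.55 against 10.17 to 10.25), and low in Cox5a (0.765; 11.54 against 11.83 to 11.92). Day 0 replicate 5 lay low in Sdhc (0.786; 9.12 against 9.82 to 10.02), in Atp5h (0.716; 8.25 against 8.97 to 9.25), in Ndufaf7 (0.714; 6.20 against 7.29 to 7.72) and in the mean over the assembly factors (0.862; 7.08 against 7.66 to 7.76). Day 6 replicate 3 lay low in Atp5j (0.927; 11.57 against 12.05 to 12.08) and in Cox6b1 (0.720; 11.00 against 11.66 to 11.92), and high in Ndufv1 (0.728; 12.09 against 11.77 to 11.86). Day 6 replicate 1 lay high in Ndufb2 (0.767; 6.86 against 5.94 to 6.15).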

How the results depend on the processing

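The report's 12 genes and 16 probes called higher and 2 genes and 2 probes called lower were recomputed in 23 other settings. With equal array medians they became 1 and 1 higher and 0 and 0 lower, the median over the 70 genes became 0.054, and those of complexes III and IV became -0.033 and 0.074. Without a detection filter 8 probes were called higher, 1 gene and 1 probe lower, and the assembly median became 0.16, with more genes tested (16593). The genes called lower became 1 with the deposited Z-scores, with detection in all 10 samples, with the repeat array of Day 0 replicate 5 alone, with the E1 to E4 block and with the probe of largest SD. The probes called lower also became 1 in each of these except the last, which has no probe count. Without both E4 samples 10 probes were called higher. The cause of these differences was not tested. Leaving out each sample in turn gave 5 to 22 genes and 6 to 27 probes called higher and 0 to 3 genes and 0 to 4 probes called lower, the highest counts without Day 0 replicate 3 or, for lower calls, Day 0 replicate 5. The median of complex III then ranged from 0.019 to 0.25. The labels do not say whether samples of the same replicate number are paired. Deviations of same-numbered samples correlated at -0.24 to 0.19, and 0 of 5 correlated best with its own number. These correlations cannot decide it, since paired samples may share little deviation. With a replicate block 7 genes and 10 probes were called higher and 0 and 0 lower. None of the 12 genes called higher and 2 called lower was called in the opposite direction in any setting. Depth here means signal over background: 10 of the 80 genes could not be tested for lack of detected signal.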
